A study of Mus musculus with 42 samples.

Results

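The circadian clock was followed through 10 of its genes, out of 43629 in the count table, in kidney and liver of mice fed drugs that had been predicted to lengthen life. The genes were taken by symbol: Arntl, Npas2, Per1, Per2, Per3, Cry1, Nr1d1, Nr1d2, Dbp and Bhlhe40, and each had a row in the table. The mice were UM-HET3 males, a genetically mixed stock, whose diet held a compound from 3 months of age for 1 month, and tissue was taken at 4 months. Kidney was sequenced from mice given AS-703026 at 30 ppm (a MEK inhibitor), ascorbyl-palmitate at 6.3 ppm (a fat-soluble form of vitamin C), AZD8055 at 20 ppm (an mTOR kinase inhibitor), enzastaurin at 75 ppm (a protein kinase C inhibitor), GDC-0941 at 50 ppm (a PI3-kinase inhibitor) or KU0063794 at 10 ppm (an mTOR kinase inhibitor), with 4 libraries each, and, with 6 libraries, from littermate controls on the Purina diet without a compound. Liver was sequenced for AS-703026, enzastaurin and GDC-0941 at the doses given above, with 4 libraries each, and liver controls were not analysed here. The time of day at which tissue was taken is not given in the sources used here, nor is the feeding state, although both set the level of every one of these genes.

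The mammalian clock is a loop in which ARNTL (also called BMAL1), with CLOCK or NPAS2 as its partner, switches on the Per, Cry, Nr1d and Dbp genes through E-box elements. PER and CRY proteins then hold ARNTL in check, while the receptors NR1D1 and NR1D2 (REV-ERB alpha and beta) repress Arntl and Npas2 themselves. In kidney and liver, Arntl and Npas2 therefore peak in antiphase to Nr1d1, Nr1d2, Dbp and Per3 over the day, and a single sample taken at an unknown hour shows the phase only through the balance of both arms. DBP drives further genes through D-box elements, and BHLHE40 (DEC1) is a repressor that competes for E-boxes. All 10 are protein-coding genes, placed here by GENCODE M21 on GRCm38. The activators are Arntl (ENSMUSG00000055116, chr7:113207465-113314126, plus strand) and Npas2 (ENSMUSG00000026077, chr1:39193731-39363236, plus strand). The receptors that repress them are Nr1d1 (ENSMUSG00000020889, chr11:98767932-98775333, minus strand) and Nr1d2 (ENSMUSG00000021775, chr14:18204054-18239127, minus strand). The period genes are Per1 (ENSMUSG00000020893, chr11:69095217-69109960, plus strand), Per2 (ENSMUSG00000055866, chr1:91415982-91459324, minus strand) and Per3 (ENSMUSG00000028957, chr4:151003652-151044665, minus strand). The others are Cry1 (ENSMUSG00000020038, chr10:85131700-85185064, minus strand), Dbp (ENSMUSG00000059824, chr7:45705088-45710203, plus strand) and Bhlhe40 (ENSMUSG00000030103, chr6:108660629-108666925, plus strand).

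The promoter stretches printed here hold letter matches to elements known from the clock, each of 300 bases around a start site in RefSeq on GRCm38.p6, with the matched letters in capitals. The Arntl promoter (chr7:113207261-113207560, plus strand) carried 1 ROR and REV-ERB element, the Per3 promoter (chr4:151044616-151044915, minus strand) carried 2 D-boxes, and the Per1 promoter (chr11:69098699-69098998, plus strand) carried 1 E-box.
Arntl: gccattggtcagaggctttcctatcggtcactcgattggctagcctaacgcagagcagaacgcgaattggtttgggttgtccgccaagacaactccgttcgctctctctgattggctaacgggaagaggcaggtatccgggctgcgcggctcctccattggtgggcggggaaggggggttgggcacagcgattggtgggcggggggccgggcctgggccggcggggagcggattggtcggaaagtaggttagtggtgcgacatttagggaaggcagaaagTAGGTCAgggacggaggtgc
Per3: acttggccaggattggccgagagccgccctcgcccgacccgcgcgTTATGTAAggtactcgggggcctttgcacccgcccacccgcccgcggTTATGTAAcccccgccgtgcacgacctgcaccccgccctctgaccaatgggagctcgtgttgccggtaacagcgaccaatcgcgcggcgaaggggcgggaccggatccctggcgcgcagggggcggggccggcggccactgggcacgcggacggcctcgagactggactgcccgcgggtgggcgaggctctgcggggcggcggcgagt
Per1: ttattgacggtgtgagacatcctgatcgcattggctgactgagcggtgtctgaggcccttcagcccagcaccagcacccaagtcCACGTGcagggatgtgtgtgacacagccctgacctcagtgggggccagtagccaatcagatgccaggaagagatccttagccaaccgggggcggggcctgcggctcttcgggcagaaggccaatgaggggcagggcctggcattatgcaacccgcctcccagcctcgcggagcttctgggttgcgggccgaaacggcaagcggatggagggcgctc
The motifs searched on both strands were the E-box CACGTG, its variant CACGTT, the D-box TTATGTAA or TTACGTAA, the ROR and REV-ERB element TAGGTCA or TGGGTCA, and the CRE TGACGTCA, none of which overlapped another in these promoters. Of 32544 promoters in the table, 7.17% held the E-box, 4.71% its variant, 1.05% the D-box, 6.48% the ROR and REV-ERB element and 1.8% the CRE. Among the 8 members with a promoter in the table, the E-box was found in Cry1 and Per1, the variant in Cry1 and Nr1d1, the D-box in Per3 and the ROR and REV-ERB element in Arntl. Counted from the start site, with bases before it negative, the element of Arntl began at 30, that of Per1 at -166 and those of Per3 at -205 and -158. Npas2, Nr1d2 and Dbp held none of these motifs. The table has a further window each for Arntl (chr7:113207215-113207514) and Per1 (chr11:69099902-69100201), and neither held a match. A match describes letters in this window and no more.

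RNA was read by CEL-seq, which barcodes each sample and sequences the 3' ends of polyadenylated transcripts, and levels are given as TMM-scaled CPM, which are comparable between libraries of a tissue. Libraries held 863605 to 5691067 counts in kidney (median 2248550) and 1084591 to 4361115 in liver (median 2792768). Taken from the raw library totals, a single count was worth 0.176 to 1.16 CPM in kidney and 0.229 to 0.922 CPM in liver, which describes depth only. Nr1d2, Nr1d1 and Bhlhe40 were well covered, with 7581, 6304 and 2263 counts over all 42 libraries. Arntl had 1407 counts, Per3 1222, Cry1 836, Per2 575 and Npas2 529. Per1 had 179 counts and was at 0 in 6 libraries, and Dbp had 66 counts and was at 0 in 17 libraries. After the filter on low counts 8 members could be tested in kidney (Per1 and Dbp fell out), 8 in liver (Npas2 and Dbp fell out) and 9 over both tissues. The last 500 bases of Dbp are covered by an exon of Sphk2 on the other strand, and Nr1d1 shares 263 exon bases with Thra in the same way. Because the strand setting of the counting is not given in the sources used here, the Dbp and Nr1d1 counts are uncertain to that extent. Sums of cell type markers, here and below, are CPM of the raw library total without TMM scaling. Proximal tubule markers summed to 11500 to 63530 CPM in kidney and to at most 3.02 CPM in liver. Hepatocyte markers summed to 66960 to 98510 CPM in liver. A few libraries stood apart. Kidney AZD8055 replicate 4 held 51150 CPM of adipocyte markers, against at most 480.7 CPM in any other kidney, kidney AS-703026 replicate 4 held 3432 CPM of inner medulla markers, against at most 812.7 CPM, and counts on satellite-like gene models took 0.0350% to 29.0% of a kidney library.

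Arntl, the activator at the head of the loop, was the member with the lowest p against control in kidney, under GDC-0941 and AS-703026. It was at 4.54, 5.91, 8.94 and 4.76 CPM in the 4 GDC-0941 kidneys, against 9.88 (lowest), 21.1 (median) and 39.9 CPM (highest) in the 6 control kidneys. All GDC-0941 kidneys lay below all controls, and 2.55% of all 11719 genes tested kept these groups apart. The log2 change was -1.95 (SE 0.50), with an unadjusted p of 0.000467 and an adjusted p of 0.0965, so Arntl missed the threshold of 0.05 in edgeR's quasi-likelihood test over all genes. In AS-703026 kidneys Arntl was at 13.2, 5.50, 3.88 and 4.75 CPM. Replicates 2 to 4 lay below every control, and replicate 1 lay inside the control range. The log2 change was -1.83 (SE 0.50), the adjusted p 0.0665 and the unadjusted p 0.00104. DESeq2 put it past the threshold, with an adjusted p of 0.0236, as did a fit of the AS-703026 and control kidneys alone (0.0428), but limma voom (0.0811) and a model with the share of satellite-like counts (0.0955) did not. Ascorbyl-palmitate kidneys held 4.61, 20.7, 7.78 and 14.1 CPM of Arntl, spread from below the controls to their median, with a log2 change of -0.95 (SE 0.44, adjusted p 0.368). In tissue RNA, fewer cells that express a gene and less of its RNA per cell cannot be told apart.

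**Figure D1:**
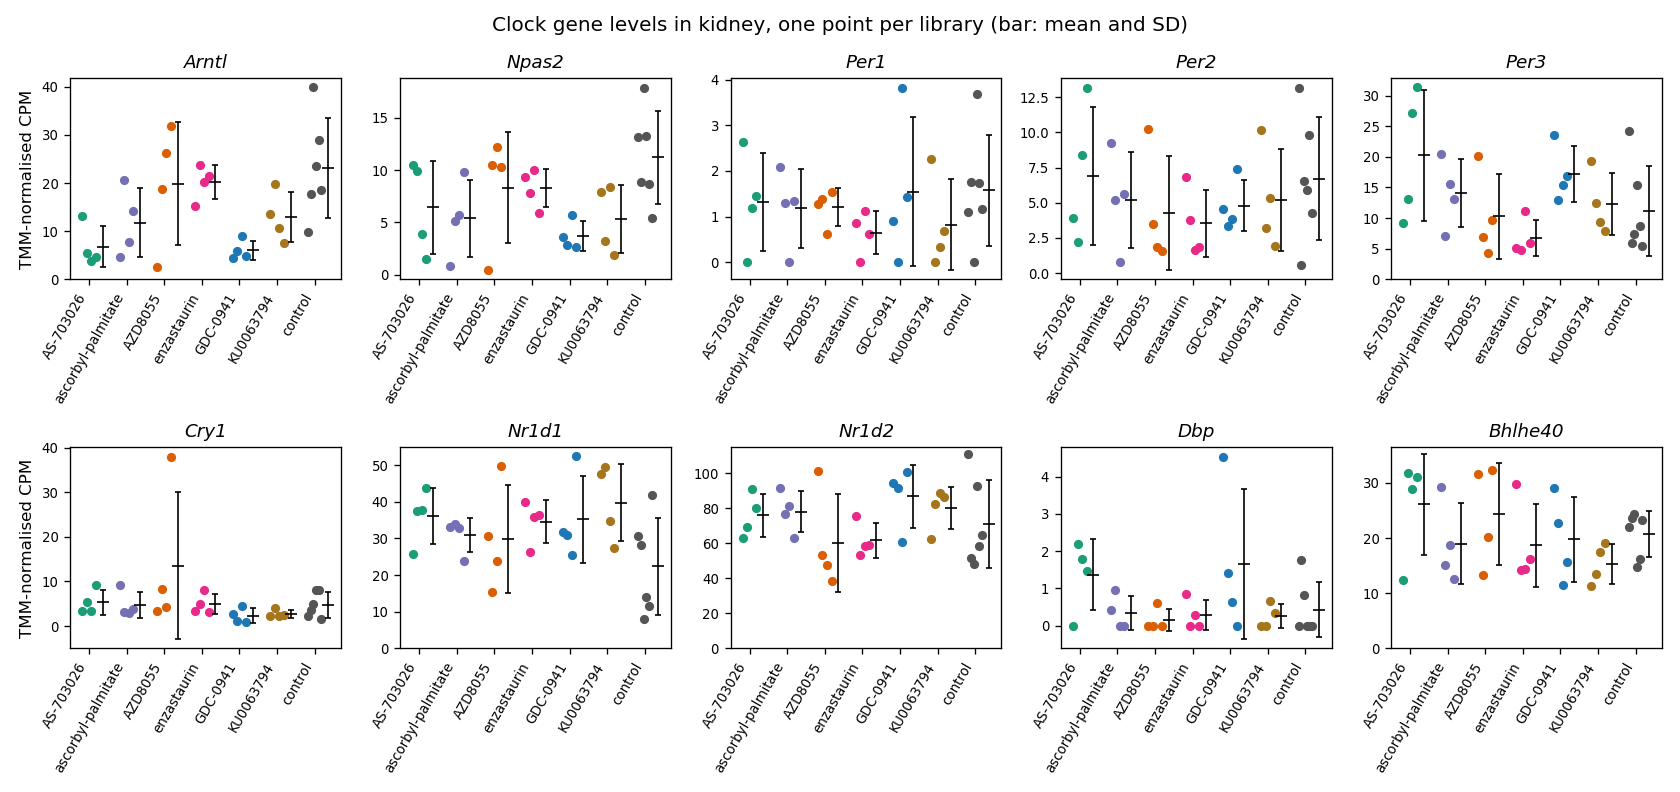
Level of each clock gene in kidney, in TMM-normalised CPM (vertical axis), by compound with control at the right (horizontal axis); each point is a library, and bars show the mean and SD. The 4 GDC-0941 kidneys lie at 4.54 to 8.94 CPM of Arntl, below the 6 controls at 9.88 to 39.9 CPM, while Nr1d2 overlaps between all groups.

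The kidney group means of Arntl ran, low to high, in the order GDC-0941 (6.04 ± 2.03 CPM), AS-703026 (6.82 ± 4.27), ascorbyl-palmitate (11.8 ± 7.11), KU0063794 (13.0 ± 5.21), AZD8055 (19.9 ± 12.7), enzastaurin (20.2 ± 3.55) and control (23.1 ± 10.4; SD, n = 4 for each compound and 6 for control). No step between neighbours in this order was larger than the SD of both groups. Tested over all 7 groups at once, Arntl had an unadjusted p of 0.00172 and an adjusted p of 0.0599. The library that widened the AZD8055 group was replicate 1, with 2.56 CPM, against 18.8, 26.3 and 31.9 CPM in the others. Over the 7 groups, the adjusted p of Arntl was 0.00487 with that library left out, 0.0321 without AS-703026 replicate 1 and 0.0383 without ascorbyl-palmitate replicate 2.

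Npas2, which can take the place of CLOCK as the partner of ARNTL, was at 3.64, 2.82, 5.75 and 2.62 CPM in GDC-0941 kidneys, against 5.43 (lowest), 11.01 (median) and 17.9 CPM (highest) in control kidneys. Replicates 1, 2 and 4 lay below all controls, and replicate 3 just above the lowest one. The log2 change was -1.63 (SE 0.61, adjusted p 0.244). Over the 6 compounds, the log2 change of Npas2 against control ran from -1.63 to -0.41 and that of Arntl from -1.95 (GDC-0941) to -0.18 (enzastaurin), and the 6 comparisons share the same control libraries.

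Among the repressors of Arntl, Nr1d1 was at 47.6, 49.4, 34.8 and 27.4 CPM in KU0063794 kidneys, against 8.14 (lowest), 21.1 (median) and 41.9 CPM (highest) in control kidneys. Replicates 1 and 2 lay above all controls, and the ranges overlapped. The log2 change was 0.77 (SE 0.32, adjusted p 0.433), and over the 6 compounds it ran from 0.40 to 0.77 against the shared controls. Among the controls themselves, replicate 3 held 8.14 CPM and replicate 6 held 41.9 CPM. Nr1d2 was at 94.5, 91.5, 60.7 and 101.0 CPM in GDC-0941 kidneys, against 48.0 (lowest), 61.6 (median) and 110.9 CPM (highest) in controls, and its log2 changes lay between -0.22 and 0.31 over the 6 compounds.

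Of the period genes, whose proteins close the loop, Per3 was the best covered. It was at 9.21, 13.2, 27.2 and 31.4 CPM in AS-703026 kidneys, against 5.43 (lowest), 8.004 (median) and 24.2 CPM (highest) in controls. Replicates 3 and 4 lay above all controls and the others inside their range. The log2 change was 1.01 (SE 0.42, adjusted p 0.236), and the 2 high libraries were also those with the lowest Arntl and Npas2 of the group. One of them, replicate 4, held the inner medulla markers named above, and the part of this in its clock gene levels was not tested. Per2 ran from 0.589 to 13.2 CPM over all kidneys, a range that the controls alone spanned, and its log2 changes lay between -1.004 and 0.22 with no unadjusted p under 0.05. Per1 was at 0 to 3.83 CPM, with a median of 3 counts and at most 6 (3 counts were worth 0.527 to 3.47 CPM by library), and was not tested in kidney.

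Cry1, the partner of the PER proteins in repression, was at 3.42, 8.36, 4.28 and 38.1 CPM in AZD8055 kidneys, against 1.55 (lowest), 4.21 (median) and 8.10 CPM (highest) in controls. The one value above 10 CPM came from replicate 4, the library with the adipocyte markers, of which 5528 counts were Adipoq and 8052 Ucp1. The log2 change of Cry1 was 1.52 (SE 0.57, adjusted p 0.113) with that library and 0.14 (adjusted p 0.962) without it. Dbp had 0, 2, 6 and 4 counts in AS-703026 kidneys and 5, 5, 1 and 0 in GDC-0941 kidneys, against 0 to 3 in controls, where 4 of 6 libraries were at 0. Bhlhe40 lay between 11.3 and 32.4 CPM in all kidneys, and its log2 changes ran from -0.39 to 0.34 with no unadjusted p under 0.05.

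Set against all genes, the kidneys gave no member past the threshold in any comparison with control. The share of all 11719 genes past it was 0.922% for AS-703026, 0.0427% for ascorbyl-palmitate, 5.46% for AZD8055, 0% for enzastaurin, 0.137% for GDC-0941 and 0.0427% for KU0063794. At an unadjusted p under 0.05 there were 2 of 8 members for AS-703026 (Arntl, Per3; 15.1% of all genes), 1 for ascorbyl-palmitate (Arntl; 12.5%), 1 for AZD8055 (Cry1; 20%), 0 for enzastaurin (7.81%), 2 for GDC-0941 (Arntl, Npas2; 13.1%) and 1 for KU0063794 (Nr1d1; 9.75%). A count of 1 of 8 is near or below these shares. DESeq2 called 1 member, Arntl under AS-703026, and 0 in the other 5 comparisons. In the test over all 7 groups, 0 of 8 members passed (2.51% of all genes), 3 had an unadjusted p under 0.05 (16.3% of all genes), and DESeq2 called Arntl (adjusted p 0.0108). A p above the threshold does not show that the groups were alike: among the controls alone Arntl spanned 9.88 to 39.9 CPM.

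In liver, where the 3 compounds were compared with each other, enzastaurin and GDC-0941 were the pair with the most members that did not overlap, Arntl, Per3, Nr1d2 and Bhlhe40, although none passed the adjusted threshold. Arntl was at 16.8, 20.4, 18.2 and 25.0 CPM in enzastaurin livers, against 8.38, 4.09, 1.28 and 8.01 CPM in GDC-0941 livers. Per3 was at 3.79, 3.08, 2.48 and 4.21 CPM in enzastaurin livers, against 11.98, 25.1, 16.3 and 12.7 CPM in GDC-0941 livers. Nr1d2 was at 49.8, 45.7, 45.1 and 41.5 CPM in enzastaurin livers, against 77.9, 91.0, 95.7 and 91.7 CPM in GDC-0941 livers. The enzastaurin livers thus had every Arntl value above, and every Per3 and Nr1d2 value below, those of GDC-0941. Bhlhe40 was at 18.4, 15.1, 11.2 and 13.8 CPM in enzastaurin livers, against 28.4, 47.7, 38.7 and 25.1 CPM in GDC-0941 livers, again with no overlap.

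The log2 change of enzastaurin over GDC-0941 was 1.94 for Arntl (SE 0.50, p 0.00157), -2.29 for Per3 (SE 0.61, p 0.00206), -0.97 for Nr1d2 (SE 0.24, p 0.00106) and -1.28 for Bhlhe40 (SE 0.25, p 0.000145), all unadjusted. Per1 followed Per3 at -2.38 (SE 0.68, p 0.0034), with 1.08, 0.237, 0.413 and 0.903 CPM in enzastaurin livers and 0.799, 6.00, 1.92 and 4.00 CPM in GDC-0941 livers. The ranges overlapped, through GDC-0941 replicate 1 and enzastaurin replicates 1 and 4. Cry1 was at 8.12, 27.4, 19.0 and 23.5 CPM in enzastaurin livers, against 15.2, 7.63, 9.28 and 6.91 CPM in GDC-0941 livers, a log2 change of 1.07 (SE 0.35, p 0.00735). The ranges overlapped here too, through enzastaurin replicate 1 and GDC-0941 replicates 1 and 3.

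Over all 9490 liver genes no gene passed the adjusted threshold between enzastaurin and GDC-0941 (0%), and the lowest adjusted p of a member was 0.226, for Bhlhe40. At an unadjusted p under 0.05 there were 6 of 8 members, against 8.03% of all genes, and 4 of 8 members did not overlap, against 4.93% of all genes. DESeq2 called Bhlhe40 (adjusted p 0.00891), and a fit of these 8 libraries alone called Per3 (0.0147) and Nr1d2 (0.0125). Nr1d1 was at 158.6, 86.6, 106.3 and 115.6 CPM in enzastaurin livers, against 131.0, 142.3, 155.5 and 170.3 CPM in GDC-0941 livers, with a log2 change of -0.37 (SE 0.46, adjusted p 0.882). Dbp had 1, 2, 0 and 0 counts in enzastaurin livers, against 3, 8, 4 and 2 in GDC-0941 livers, too few to test. In counts these groups met at 2, and only scaling by depth set them apart on the CPM scale.

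**Figure D2:**
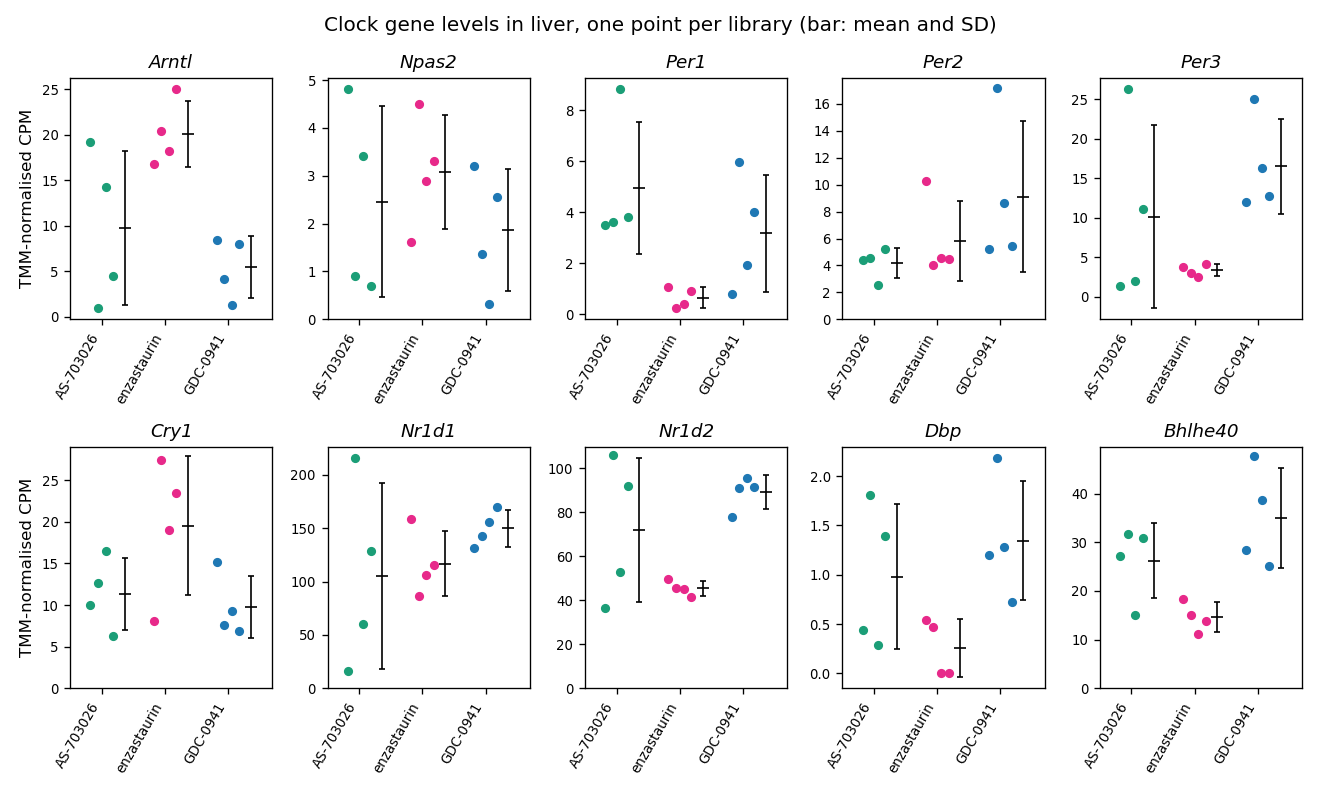
Level of each clock gene in liver, in TMM-normalised CPM (vertical axis), by compound (horizontal axis); each point is a library, and bars show the mean and SD of 4. Enzastaurin libraries lie above GDC-0941 libraries for Arntl (16.8 to 25.0 against 1.28 to 8.38 CPM) and below them for Nr1d2, Per3 and Bhlhe40, and the AS-703026 libraries run from 0.906 to 19.2 CPM of Arntl.

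The 4 AS-703026 livers did not form a single level. Arntl was at 19.2, 0.906, 14.2 and 4.51 CPM in replicates 1 to 4, Nr1d1 at 16.2, 215.7, 60.1 and 128.8 CPM, Per3 at 1.31, 26.3, 1.99 and 11.1 CPM and Nr1d2 at 36.3, 106.0, 53.0 and 92.0 CPM. Replicates 1 and 3 had high Arntl with low Nr1d1, Nr1d2 and Per3, and replicates 2 and 4 the reverse. Npas2 was at 4.81, 0.906, 3.42 and 0.694 CPM, high in the same libraries as Arntl, but on only 11, 1, 12 and 2 counts. The Arntl value of replicate 2 was 1 count. Car3, a liver gene that also stands on the list of adipocyte markers, made up nearly all of that list's sum in liver. The sum was 1137, 8749, 1717 and 3943 CPM in the AS-703026 livers, 6347 to 8895 CPM in enzastaurin livers and 8102 to 12840 CPM in GDC-0941 livers, with Adipoq at 0 to 1 count in the AS-703026 livers. Its part in the clock gene levels was not tested. Enzastaurin replicate 2 stood apart in adipocyte markers, with 199 counts of Adipoq, 566 of Fabp4 and 1141 of Cfd, against at most 6, 33 and 13 in any other liver. That library also had the highest Cry1 of the livers, and the enzastaurin over GDC-0941 log2 change of Cry1 was 0.86 (adjusted p 0.778) without it. The part of this library in the other levels was not tested beyond leaving it out.

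Per1, which is also a direct target of the glucocorticoid receptor, was higher under AS-703026 than under enzastaurin, the liver group with the lowest mean. It was at 3.50, 3.63, 8.83 and 3.82 CPM in AS-703026 livers, against 1.08, 0.237, 0.413 and 0.903 CPM in enzastaurin livers. The groups did not overlap, in 1 of 8 members and 8.63% of all genes, but the enzastaurin values rested on 2, 1, 1 and 3 counts, against 8, 4, 31 and 11 counts under AS-703026. The log2 change was 3.05 (SE 0.65, adjusted p 0.0213). Per1 passed the filter on low counts only through AS-703026 and GDC-0941 livers, where it was high. In a fit of AS-703026 and enzastaurin livers alone it fell to that filter. Its tests against enzastaurin are thus not independent of the filter. From the summed counts, 54 against 7, the ratio was 9.16 with a 95% counting interval of 4.15 to 23.9, which covers counting error only. With the share of satellite-like counts in the model the adjusted p was 0.586, and it was 0.102 without AS-703026 replicate 3, 0.0765 without enzastaurin replicate 2 and 0.0539 without enzastaurin replicate 4. The satellite-like share was 1.12%, 1.32%, 1.77% and 0.857% in the AS-703026 livers, and at most 0.645% in the other livers, so share and compound cannot be told apart there. GDC-0941 livers also held more Per1 than enzastaurin livers, 41 counts against 7, a ratio of 5.94 (95% counting interval 2.64 to 15.7). The log2 change of Per1 for AS-703026 over GDC-0941 was 0.66 (SE 0.48, adjusted p 0.551 in edgeR's test).

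Per1 was the 1 member called between AS-703026 and enzastaurin, where 2.96% of all genes were called, and 4 of 8 members had an unadjusted p under 0.05, against 16.2% of all genes. The other 3 were Bhlhe40 (log2 change 0.81, SE 0.26, adjusted p 0.126), Nr1d2 (0.63, SE 0.24, adjusted p 0.210) and Cry1 (-0.83, SE 0.35, adjusted p 0.257). Between AS-703026 and GDC-0941 0 members were called by edgeR and by DESeq2, with 3.22% of all genes called by edgeR. At an unadjusted p under 0.05 there was 1 of 8 members, against 16.1% of all genes: Per2, at 4.37, 4.53, 2.56 and 5.21 CPM in AS-703026 livers, against 5.19, 17.2, 8.64 and 5.46 CPM in GDC-0941 livers (log2 change -1.21, SE 0.44, adjusted p 0.165). The AS-703026 livers lay below all GDC-0941 livers except for replicate 4, which lay just above the lowest of them. In the test over the 3 liver groups, Bhlhe40 (adjusted p 0.0269) and Per1 (0.0414) passed, 2 of 8 members where 3.2% of all genes did, and 7 of 8 had an unadjusted p under 0.05, all but Nr1d1, against 16.8% of all genes. Both fell out when the satellite-like share was a covariate (adjusted p 0.148 for Bhlhe40 and 0.390 for Per1). The count of members ran from 0 to 4 as each library was left out. It was 0 without enzastaurin replicate 2, 3 or 4 and 4 without AS-703026 replicate 2. Per1 entered this test, too, only through livers where it was high.

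Because the liver comparisons were between compounds, the same pairs were also set side by side in kidney, a choice made after the data were seen. Arntl was at 15.3, 23.7, 20.3 and 21.4 CPM in enzastaurin kidneys, against 4.54, 5.91, 8.94 and 4.76 CPM in GDC-0941 kidneys, and Per3 at 5.11, 4.86, 11.1 and 5.90 CPM in enzastaurin kidneys, against 23.6, 13.0, 15.3 and 16.9 CPM in GDC-0941 kidneys. Neither gene overlapped between these groups. The log2 change of enzastaurin over GDC-0941 in kidney was 1.77 for Arntl (SE 0.52, p 0.00177), -1.28 for Per3 (SE 0.46, p 0.0100) and -0.51 for Nr1d2 (SE 0.25, p 0.0482), unadjusted, with an adjusted p of 0.836 for each. In liver the values were 1.94, -2.29 and -0.97. Whether the kidney and liver libraries came from the same mice is not given, nor is the time of collection, so the 2 tissues cannot be taken as independent. Npas2 was the third member without overlap in kidney, at 9.37, 7.82, 10.0 and 5.90 CPM in enzastaurin kidneys, against 3.64, 2.82, 5.75 and 2.62 CPM in GDC-0941 kidneys. Bhlhe40, at -1.28 in liver, was at -0.12 in kidney (SE 0.32, adjusted p 0.982). No gene of the table passed the adjusted threshold in this pair (0%), 3 of 8 members had an unadjusted p under 0.05, against 5.82% of all genes, and 3 of 8 did not overlap, against 4.16%.

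Between AS-703026 and enzastaurin kidneys, Arntl had a log2 change of -1.65 (SE 0.52, adjusted p 0.228) without overlap, the 1 of 8 members for which this held against 8.06% of all genes, and Per3 one of 1.60 (SE 0.46, adjusted p 0.211). Neither passed the threshold, 0 of 8 members did by edgeR and by DESeq2, and 0.0256% of all genes did. At an unadjusted p under 0.05 there were 2 of 8, against 12.8% of all genes. Between AS-703026 and GDC-0941 kidneys 0 members passed by either tool (0% of all genes), and 0 had an unadjusted p under 0.05, against 8.61% of all genes. Whether the compounds differed otherwise in kidney than in liver was tested as an interaction in the 24 libraries of the 3 compounds. Of 9 members, 0 passed by edgeR and by DESeq2, against 0.163% of all 12262 genes by edgeR, and 2 had an unadjusted p under 0.05, against 10% of all genes, Per2 (adjusted p 0.412) and Bhlhe40 (adjusted p 0.455).

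**Figure D3:**
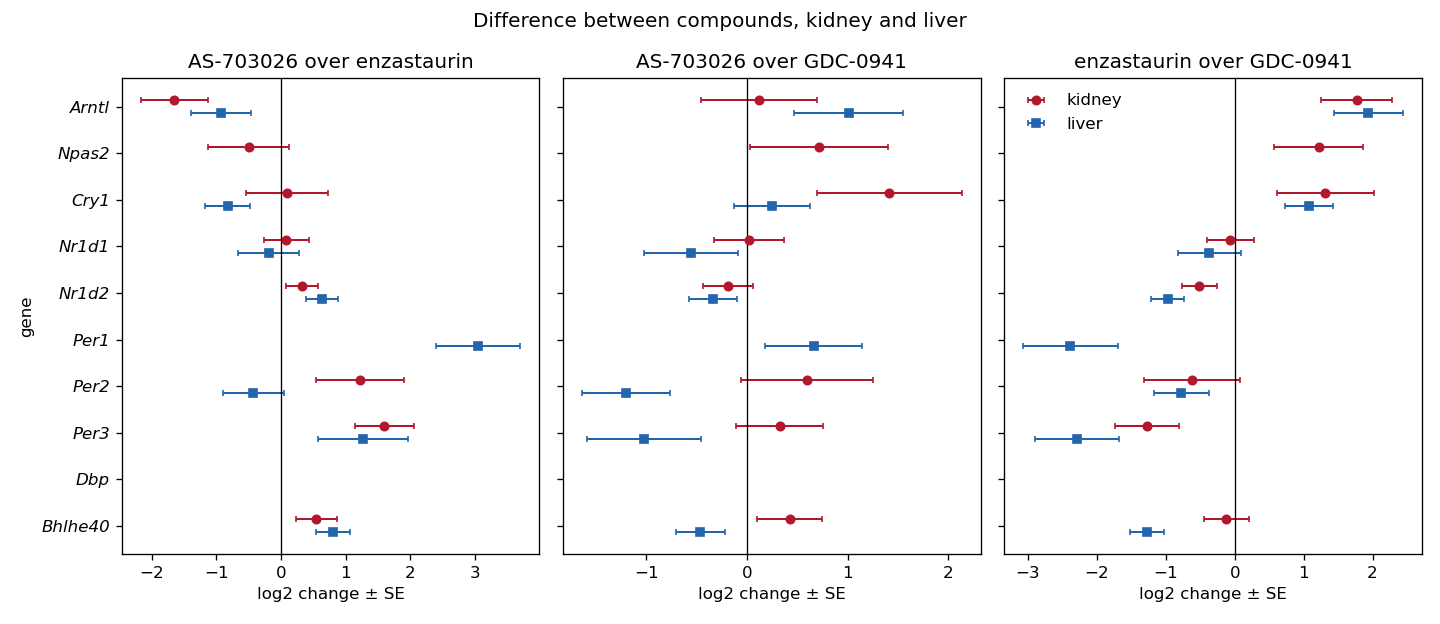
Log2 change of each clock gene between pairs of compounds (horizontal axis, log2, first over second) with the gene on the vertical axis, in kidney and in liver; points are edgeR estimates and bars 1 SE. For enzastaurin against GDC-0941, Arntl lies at 1.77 in kidney and 1.94 in liver, and Per3 at -1.28 and -2.29.

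Whether the 2 arms of the loop moved against each other was next followed library by library. Levels were taken on the log2(CPM + 1) scale relative to the tissue mean, with Arntl and Npas2 averaged as one arm and Nr1d1, Nr1d2, Dbp, Per1, Per2 and Per3 as the other. The arms lay on opposite sides of the tissue mean in 19 of 30 kidneys, 12 with Arntl and Npas2 high and 7 with them low. In liver they did so in 10 of 12 libraries, 6 with Arntl and Npas2 high and 4 with them low. These counts describe the libraries, and no test was made of the averages. All 4 enzastaurin livers had Arntl and Npas2 high and the other arm low, as had 3 of 4 enzastaurin kidneys and 4 of 6 control kidneys. Arntl and Npas2 were low and the other arm high in 3 of 4 GDC-0941 kidneys and 2 of 4 GDC-0941 livers. The AS-703026 livers held 2 of each kind. None of the 4 KU0063794 kidneys had the arms on opposite sides.

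The group means of the averages were -0.78 for Arntl and Npas2 and 0.29 for the other arm in GDC-0941 kidneys, -0.53 and 0.32 in AS-703026 kidneys, and 0.52 and -0.28 in enzastaurin kidneys, against 0.74 and -0.10 in control kidneys. In liver they were 0.73 and -0.47 for enzastaurin, -0.52 and 0.51 for GDC-0941 and -0.20 and -0.04 for AS-703026. The control kidneys thus had the highest mean of Arntl and Npas2. Among single libraries, AZD8055 replicate 1 had the lowest value of that arm in kidney, at -2.09 with 0.34 for the other arm, and control replicate 3 the highest, at 1.53 with -0.51.

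**Figure D4:**
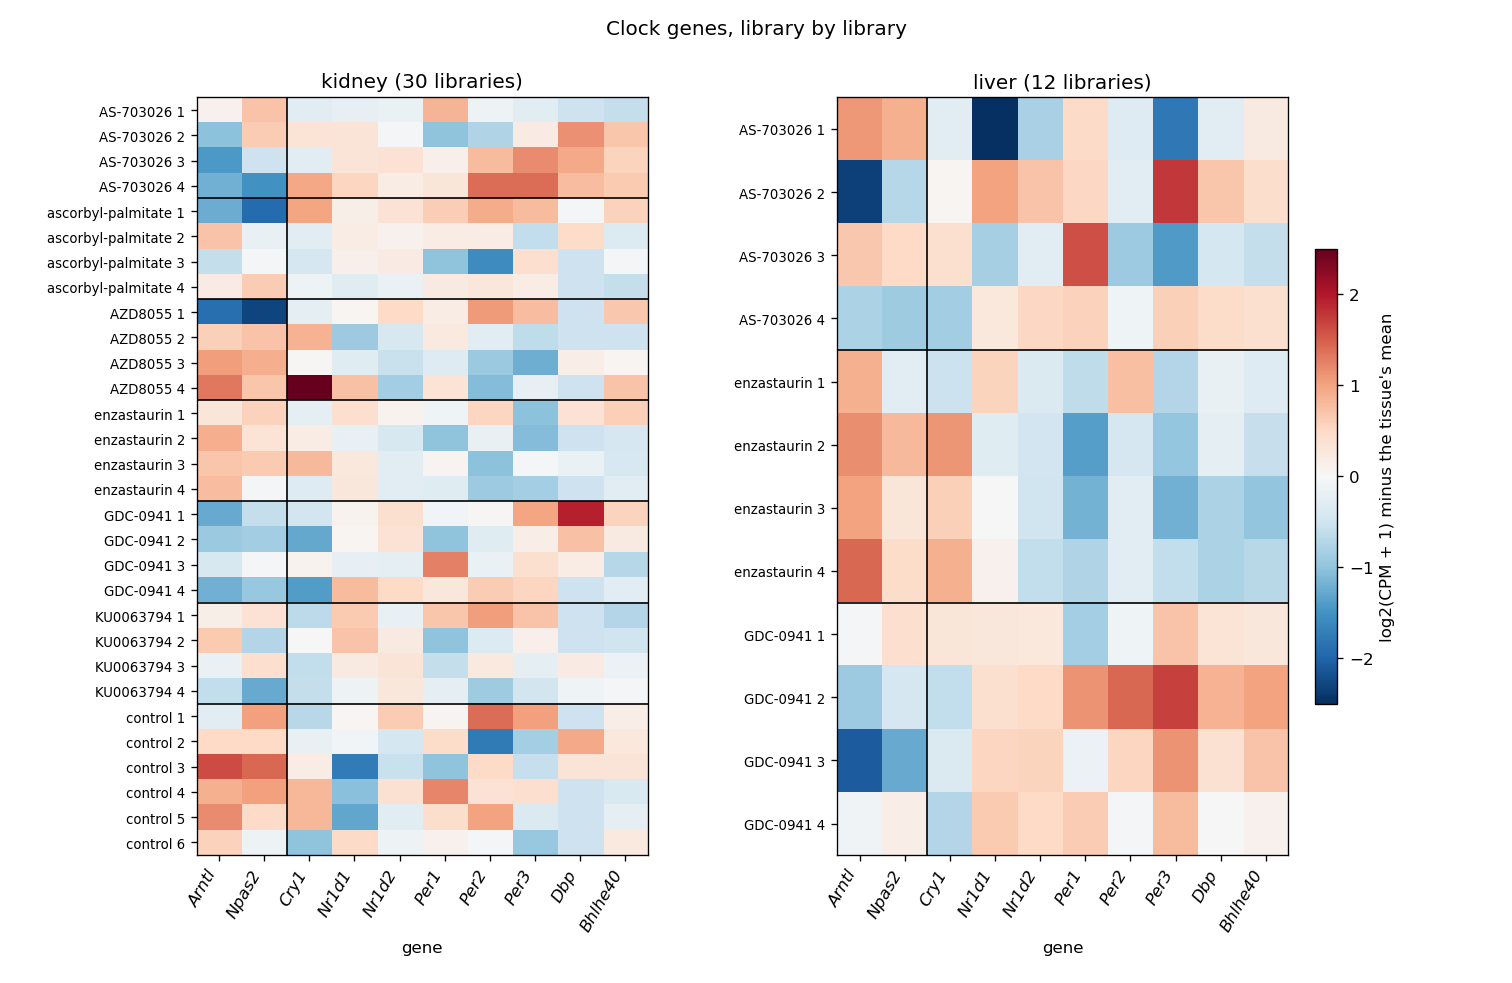
Clock gene levels in each library, as log2(CPM + 1) minus the tissue's mean, in kidney and in liver; rows are libraries by compound and replicate, columns are genes, and a vertical line sets Arntl and Npas2 apart. Colours end at 2.5 in either direction, and AS-703026 livers 1 and 3 show the reverse of AS-703026 livers 2 and 4.

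To leave only the spread within groups, each value was then taken relative to its group mean, and Arntl and Npas2 were each correlated with the 6 genes of the other arm, 24 relations in both tissues together. In kidney all 12 coefficients were below 0, from -0.78 to -0.00064. The strongest was that of Arntl with Nr1d2 (Pearson's r -0.782, permutation p 5e-05, adjusted p 0.0012, Spearman's rho -0.726 with permutation p 0.00012, 30 libraries), the 1 relation past the threshold. It was -0.642 (permutation p 0.00107) without the 2 libraries farthest from the median of Arntl, and -0.827 to -0.667 as each library was left out. The kidneys with little Arntl for their group were thus those with much Nr1d2. Arntl with Per3 had an r of -0.583 (rho -0.441, permutation p 0.00726 and 0.0406, adjusted p 0.0581), and Npas2 with Nr1d2 one of -0.544 (rho -0.511, permutation p 0.0137 and 0.00927, adjusted p 0.0657). Without the 2 farthest libraries these were -0.399 and -0.344, so both rested in part on those libraries. Arntl with Nr1d1 had an r of only -0.296 (permutation p 0.219), and the relations with Dbp and Per1, both near the limit of detection in kidney, lay between -0.11 and 0.

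In liver 11 of 12 coefficients were below 0, from -0.855 to 0.145, and the one above 0 was Arntl with Per1. None passed the adjusted threshold, and 4 had an unadjusted permutation p under 0.05 for Pearson's r. These were Npas2 with Nr1d2 (r -0.789, rho -0.867, permutation p 0.00614 and 0.00992, adjusted p 0.0581), Npas2 with Nr1d1 (r -0.726, rho -0.811, permutation p 0.0101 and 0.0152, adjusted p 0.0606), Arntl with Nr1d2 (r -0.851, rho -0.902, permutation p 0.0216 and 0.00727, adjusted p 0.0862) and Arntl with Per3 (r -0.855, rho -0.832, permutation p 0.0277 and 0.0480, adjusted p 0.0951). Without the 2 libraries farthest from the median of the first gene they were -0.829, -0.801, -0.669 and -0.608. Much of this spread came from the AS-703026 livers. Without those 4 libraries the coefficients were -0.711, -0.541, -0.652 and -0.346, with adjusted p from 0.375 to 0.763. Npas2 fell to the count filter in liver, with 87 counts over the 12 libraries and a median of 7. Its relations in liver thus rest on few counts.

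**Figure D5:**
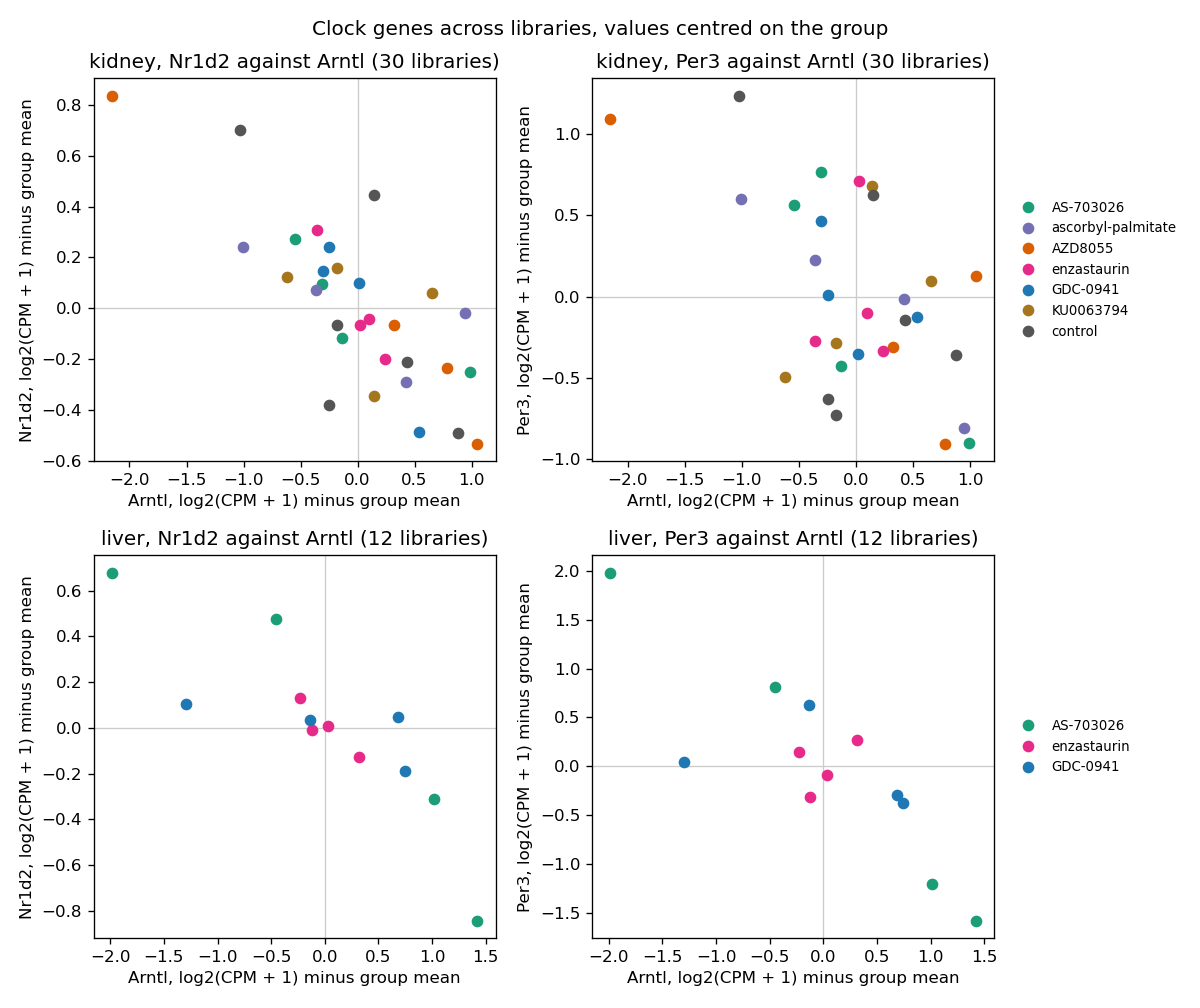
Nr1d2 (left) and Per3 (right) against Arntl in kidney (top) and liver (bottom), each axis in log2(CPM + 1) minus the group mean; a point is a library, coloured by compound or control. The points descend from left to right, with an r of -0.782 for Nr1d2 and -0.583 for Per3 in kidney, and the ends of both liver panels are AS-703026 libraries.

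The labels give the kidneys and livers of a compound the same replicate numbers without saying whether a number is a mouse. Over the 12 same-numbered pairs of AS-703026, enzastaurin and GDC-0941, 0 of 10 members passed the adjusted threshold for a relation between tissues. Nr1d1 had the highest coefficient (r 0.563, rho 0.629, permutation p 0.0206 and 0.0379, adjusted p 0.206), which was 0.292 to 0.705 as each pair was left out and 0.492 without the 2 pairs farthest from the median. Arntl had an r of 0.0627 (permutation p 0.925), and the AS-703026 livers with high Arntl, replicates 1 and 3, faced kidneys at 13.2 and 3.88 CPM.

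Levels in the 2 tissues were compared over the 3 shared compounds with all 24 libraries scaled together. Cry1 was at 3.25 ± 1.94 CPM in kidney and 17.1 ± 9.04 CPM in liver, and its ranges, 0.745 to 7.20 CPM in kidney and 7.89 to 35.8 CPM in liver, did not overlap. Nr1d1 was at 27.6 ± 6.28 CPM in kidney and 154.5 ± 62.9 CPM in liver (SD, n = 12 each), with the single overlapping liver being AS-703026 replicate 1. The log2 change of kidney over liver was -2.48 for Cry1 (SE 0.27, adjusted p 6.746e-09) and -2.44 for Nr1d1 (SE 0.24, adjusted p 9.411e-10). Per1 (-1.69), Per2 (-0.96), Arntl and Bhlhe40 (both -0.87) and Nr1d2 (-0.51) were also lower in kidney, each with an adjusted p of at most 0.00767. This made 7 of 9 members lower in kidney, where 38.2% of all genes were. Per1, too sparse to be tested in kidney alone, passed the count filter here mainly through livers, where it was high. Npas2 (log2 change 0.44, SE 0.34, adjusted p 0.232) and Per3 (0.12, SE 0.31, adjusted p 0.743) missed the threshold.

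Beyond these members, a list of other core clock genes held 18 genes in the table, of which 16 were tested in kidney and 15 in liver. Cry2, the second cryptochrome, was low in all kidneys and was called higher under AS-703026, at 5.09 ± 3.01 CPM, and under AZD8055, at 4.08 ± 1.42 CPM, against 1.29 ± 1.01 CPM in control kidneys (SD, n = 4 for each compound and 6 for control). The ranges overlapped, at 1.10 to 8.07 CPM for AS-703026, 2.99 to 6.17 CPM for AZD8055 and 0.579 to 3.295 CPM for control. The control range lay within the 0.527 to 3.47 CPM that 3 counts were worth by library. No control kidney reached the level asked by the filter on low counts. Cry2 entered the test through AS-703026, AZD8055 and ascorbyl-palmitate kidneys, where it was high, so its calls against control carry that limit. The log2 change of Cry2 was 2.14 for AS-703026 (SE 0.50, adjusted p 0.0394) and 1.73 for AZD8055 (SE 0.52, adjusted p 0.0455). The AZD8055 value was 1.45 (adjusted p 0.276) without replicate 4, the library with adipocyte markers, and the AS-703026 value was 2.03 (adjusted p 0.206) without its replicate 4. As each kidney was left out, the adjusted p ran from 0.0218 to 0.206 for AS-703026 and from 0.0281 to 0.276 for AZD8055, and with all genes unfiltered it was 0.0775 and 0.224. The other compounds gave 1.799 (ascorbyl-palmitate), 1.35 (GDC-0941), 1.13 (KU0063794) and 0.81 (enzastaurin), with adjusted p from 0.107 to 0.716, against the shared controls. With these 2 exceptions no gene of the list was called by edgeR in the 6 comparisons with control, where 0% to 5.46% of all genes were. At an unadjusted p under 0.05 there were 0 to 4 of 16, against 7.81% to 20% of all genes. The median log2 change of the list's tested genes lay between -0.17 and 0.05, while that of all genes lay between -0.02 and 0.03.

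Nfil3, a repressor that competes with DBP at D-boxes and is itself repressed by the NR1D receptors, passed in the test over the 7 kidney groups (adjusted p 0.0357), but not with limma voom (0.1401), and as each library was left out the adjusted p ran from 0.0045 to 0.0814. It was at 4.21 ± 2.55 CPM in GDC-0941 kidneys, 5.11 ± 1.81 CPM in KU0063794 kidneys and 7.61 ± 1.58 CPM in ascorbyl-palmitate kidneys, against 20.8 ± 8.05 CPM in control kidneys (SD, n = 4 for each compound and 6 for control). The log2 changes were -2.23 (SE 0.53, adjusted p 0.0851), -1.91 (SE 0.52, adjusted p 0.161) and -1.44 (SE 0.49, adjusted p 0.185), none past the threshold. In liver 0 of 15 genes of the list were called by edgeR in any pair of compounds. Between enzastaurin and GDC-0941, 6 of 15 had an unadjusted p under 0.05, against 8.03% of all genes. Among the 6 were Nfil3 (log2 change 1.16, adjusted p 0.376), Tef (-1.22, adjusted p 0.467), a relative of Dbp, Ciart (-3.66, adjusted p 0.315), a repressor of ARNTL and CLOCK, and Cry2 (-0.79, adjusted p 0.552). Median log2 changes of the list in liver lay between -0.10 and 0.04, and those of all genes within 0.01 of 0.

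Among genes known to cycle as outputs of the clock in liver or kidney, 21 were tested in kidney and 23 in liver. Under AS-703026 in kidney, where 0.922% of all genes were called, 1 of 21 fell. This was Tfrc, the transferrin receptor (log2 change -0.92, adjusted p 0.0406, and 0.204 without AS-703026 replicate 4). Under AZD8055 in kidney, where 5.46% of all genes were called, Pnpla2, a fat lipase, and Lpin1 rose (3.54 and 1.81) and Cys1 fell (-1.21). Without replicate 4 the values were 0.19, 0.19 and -1.04 with adjusted p from 0.164 to 0.802. The other 4 kidney comparisons with control had 0 called and 1 to 4 of 21 with an unadjusted p under 0.05, against 7.81% to 13.1% of all genes. Between AS-703026 and enzastaurin livers, where 2.96% of all genes were called, 2 of 23 passed. Por, the reductase that serves cytochromes P450, rose (log2 change 0.73, adjusted p 0.0143) and Elovl3, a fatty acid elongase, fell (-1.40, adjusted p 0.00406). Between AS-703026 and GDC-0941 livers, where 3.22% of all genes were called, 1 of 23 passed. Cyp7a1, the rate-limiting enzyme of bile acid synthesis, fell (-1.20, adjusted p 0.0253). With the share of satellite-like counts in the model, the adjusted p of these 3 liver genes ran from 0.242 to 0.321. Between enzastaurin and GDC-0941 livers 0 of 23 passed (0% of all genes) and 8 had an unadjusted p under 0.05 (8.03% of all genes).

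Genes whose spread within groups was most like that of a member were sought among 9781 genes in kidney and 8316 in liver, by Pearson's r over the libraries of a tissue as a description. For Arntl they included Pnrc1 (0.675), Ypel2 (0.671), Slc16a1 (0.669) and Dus2 (0.667) in kidney, and in liver they were Fbxo6 (0.954), Marc1 (0.920), Dars (0.919), Nedd4l (0.914) and Slc11a2 (0.907). For Nr1d1 they were Gsk3a (0.799), Tsc2 (0.781), Gpr108 (0.733), Nub1 (0.711) and Pdk2 (0.704) in kidney, and Oxa1l (0.965), Tef (0.963), Rbp4 (0.949), Narf (0.944) and Il1rap (0.939) in liver. For either member, the 5 genes of one tissue shared 0 with those of the other. Tef, whose product binds the same D-boxes as DBP, also had one of the 5 lowest coefficients with Arntl in kidney (-0.73). Over 12 livers high coefficients arise among so many genes without any relation, the libraries share depth and scaling, and Dbp, led by Ap1ar (0.611) in kidney and Ormdl1 (0.890) in liver, had too few counts for a likeness to be read. Thra, which overlaps Nr1d1, had an r of 0.492 with it in kidney and 0.422 in liver.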

How the data were processed

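The table used holds counts per gene as deposited by the authors, whole numbers with no normalization, for 43629 Ensembl genes and 42 libraries. Per the submitters' processing notes, bcl2fastq 1.8.4, Trimmomatic 0.32, STAR 2.5.2b, featureCounts 1.5 and the mm10 genome were used. The annotation release is not given in the sources used here, nor are the strand setting, the collapsing of molecular identifiers, the time of collection or batches. All columns matched a sample by name (0 left unused). Symbols and coordinates came from GENCODE M21 on GRCm38.

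TMM factors scaled the counts and filterByExpr removed low genes. Each tissue had its own model with every library in it, tested by quasi-likelihood in edgeR 4.0.16 under R 4.3.3, and p-values were adjusted by Benjamini-Hochberg over 11719 genes in kidney, 9490 in liver and 12262 over both. Unadjusted p-values come from the same fits, and SEs from the change and its F statistic. The coefficient of biological variation was 0.294 in kidney and 0.191 in liver. Correlations used log2(CPM + 1) less the group mean, 100000 permutations of libraries within groups, two-sided, and Benjamini-Hochberg adjustment over 24 relations (SciPy 1.17.1). Alternatives were limma 3.58.1 (voom, weighted by sample), DESeq2 1.42.0, RLE factors, all genes unfiltered, a fit of only the 2 groups compared, a block for the replicate number, the satellite-like share as a covariate and each library left out. The kidney comparisons between compounds and the correlations without AS-703026 livers were added after seeing the data.

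All 10 members are described, log2 changes are printed for members with an unadjusted p under 0.05 and the rest by range, further list genes past 0.05 between groups of a tissue are named, and the 5 genes most like Arntl, Nr1d1 and Dbp were sought, of which a result is not reported here. List genes named without passing (Nfil3, Tef, Ciart) were chosen after their values were seen. Members and lists were chosen with earlier results of these data known. The series design calls the libraries of a group biological replicates without saying how they map to mice, so p-values measure the spread between these libraries. No pair of libraries of a group held equal counts (lowest chi-square per gene 4.10). The scripts were tested on simulated data.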

Additional observations from a re-analysis of the deposited data

Results flagged for a closer look

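In 80 combinations of a member and a group of 4 or 6 libraries, the highest or lowest library lay apart from the others by Dixon's criterion in 10, where chance gives about 1 in 20. In AZD8055 kidneys Npas2 was at 0.427 CPM in replicate 1 and 10.3 to 12.2 CPM in the others, and Cry1 was at 38.1 CPM in replicate 4, the library with adipocyte markers, and 3.42 to 8.36 CPM in the others. In AS-703026 livers Per1 was at 8.83 CPM in replicate 3 and 3.50 to 3.82 CPM in the others. In enzastaurin livers Per2 was at 10.3 CPM in replicate 1 and 4.02 to 4.55 CPM in the others. In enzastaurin kidneys Per3 was at 11.1 CPM in replicate 3 and 4.86 to 5.90 CPM in the others, and Bhlhe40 at 29.8 CPM in replicate 1 and 14.3 to 16.1 CPM in the others. In AS-703026 kidneys Bhlhe40 was at 12.5 CPM in replicate 1 and 29.0 to 31.9 CPM in the others. In ascorbyl-palmitate kidneys Cry1 was at 9.21 CPM in replicate 1 and 2.87 to 3.73 CPM in the others, and Nr1d1 at 23.97 CPM in replicate 4 and 32.8 to 33.9 CPM in the others. In KU0063794 kidneys Cry1 was at 4.16 CPM in replicate 2 and 2.26 to 2.43 CPM in the others.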

How the results depend on the processing

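Log2 changes of members with an unadjusted p under 0.05 kept their direction under every alternative in which they were refitted, and 7 members were lower in kidney than in liver under each. The one reversed direction was that of Pdk4 under AZD8055 in kidney, at 5.16 on the log2 scale with all libraries, -1.34 without AZD8055 replicate 4 (alone or with enzastaurin replicate 1) and -0.94 with limma voom, and it ran from -1.34 to 5.54 as each library was left out. Counts of members past the threshold moved as follows. DESeq2 called 1 member in AS-703026 against control, 1 over the 7 kidney groups and 1 in enzastaurin against GDC-0941 in liver. Without the filter on low counts, where the members too sparse for the filter entered as well, there was 1 in AS-703026 and 1 in GDC-0941 against control, 3 over the kidney groups, 2 in AS-703026 against enzastaurin and 1 in enzastaurin against GDC-0941 in kidney, 6, 4 and 6 in the liver pairs, 8 over the liver groups and 2 in the interaction. The share of all genes called without the filter is not given here, so these unfiltered counts are not read as a result about the members. The 2 groups alone gave 1 in AS-703026 against control, 1 in enzastaurin against GDC-0941 in kidney, 0 in AS-703026 against enzastaurin in liver (Per1 fell to the filter there) and 2 in enzastaurin against GDC-0941 in liver. Voom gave 1 in AS-703026 against enzastaurin in kidney. The satellite-like covariate left 0 in AS-703026 against enzastaurin and 0 over the groups in liver. Without AZD8055 replicate 4 and enzastaurin replicate 1, the kidney with the highest sum of hepatocyte markers (4931 CPM, against at most 4033 in the others), there was 1 in AS-703026 against control. The causes were not tested.

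As each library was left out, the count was 0 to 1 for AS-703026, AZD8055 and GDC-0941 against control, 0 to 2 over the kidney groups, 0 to 2 for AS-703026 against enzastaurin in liver and 0 to 4 over the liver groups. AS-703026 against control gained Arntl without AS-703026 replicate 1, AZD8055 replicate 1 or AZD8055 replicate 4. GDC-0941 against control gained it without AZD8055 replicate 1 or control replicate 2. Pairs past the threshold numbered 1 in kidney and 0 in liver. They were 6 and 7 without centring, 2 and 3 with a pseudocount of 5, 2 and 2 with the satellite-like share regressed out, 2 in kidney without the same 2 libraries, 1 in liver without the 2 farthest libraries, and 1 to 3 in kidney and 0 to 5 in liver as each library was left out.

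Counts of called genes over the whole table moved more, for AS-703026 against control in kidney from 108 to 258 with DESeq2 and 0 with the block, for AS-703026 against enzastaurin in liver from 281 to 1 and against GDC-0941 from 306 to 22 with the satellite-like covariate, and for AZD8055 against control from 640 to 23 without the same 2 libraries. With the replicate number as a block, 1 member was called over the liver groups, and no other count of members changed. The deviations of same-numbered libraries had a median r of 0.00509 over 84 kidney pairs, -0.0271 over 12 liver pairs and 0.0308 over 12 kidney and liver pairs. For pairs of unlike number the medians were -0.00428, 0.0107 and -0.0273. Tissues of 1 mouse need not deviate together, so these values cannot show whether a number is a mouse. Depth limits Per1 and Dbp most, at 179 and 66 counts in 42 libraries.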

Other observations

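The list of genes that answer to glucocorticoids, Per1 among them, was the list with the most genes called in liver. In AS-703026 livers 4 of 12 tested genes of the list were called higher than in enzastaurin livers, where 2.96% of all genes were called. These were Lcn2 (log2 change 7.48), Mt2 (5.87), Mt1 (4.89) and Per1 itself (3.05), the last with the limit of the count filter given above. Relative to GDC-0941, where 3.22% of all genes were called, 4 of 12 were called higher as well. These were Lcn2 (8.13), Mt2 (5.12), Mt1 (3.86) and Sgk1 (0.83), with adjusted p from 0.000482 to 0.0199 in edgeR's test. No gene of the list beyond those named was called in either comparison. Lcn2, Mt1 and Mt2 encode lipocalin 2 and the metallothioneins, which also rise in the acute phase response. The list's median log2 change was 0.81 and 0.76 in these comparisons, and that of all genes lay within 0.01 of 0. With the share of satellite-like counts in the model, which cannot be told apart from the AS-703026 livers, Lcn2 had a log2 change of 7.29 against enzastaurin (adjusted p 0.182) and of 7.99 against GDC-0941 (adjusted p 0.0316), and no other gene of the list passed. Between enzastaurin and GDC-0941 livers 0 of 12 passed (0% of all genes), with 2 at an unadjusted p under 0.05 (8.03% of all genes). In kidney 1 of 11 was called, Pdk4 under AZD8055 (5.46% of all genes), and it fell out without replicate 4.

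Temperature-responsive genes gave 1 called of 10 in AS-703026 kidneys (0.922% of all genes), Cirbp (log2 change 0.89, adjusted p 0.0394, and 0.206 without AS-703026 replicate 4). They gave 1 of 10 in AZD8055 kidneys (5.46% of all genes), Hsph1 (-0.78, adjusted p 0.0335, and 0.202 without replicate 4). The list had 0 called by edgeR in the other kidney comparisons with control. At an unadjusted p under 0.05 there were 2 to 6 of 10, against 7.81% to 13.1% of all genes. In the liver pairs 0 were called, with 0 to 2 at an unadjusted p under 0.05, against 8.03% to 16.2% of all genes. Over the 7 kidney groups mt-Rnr1, a mitochondrial ribosomal RNA, passed in edgeR (adjusted p 0.00951), beside Malat1 (0.0169) and Neat1 (0.0150), but not without control replicate 5 (0.0737) or with the replicate block (0.0904). Of 10 transcripts chosen as signs of RNA state, Malat1 (-1.60) and Neat1 (-2.03) fell in AZD8055 kidneys, where 5.46% of all genes were called. The values without replicate 4 were -1.51 (adjusted p 0.132) and -2.54 (adjusted p 0.0361). In the other kidney comparisons with control 0 of 10 were called by edgeR, with 2 to 5 at an unadjusted p under 0.05, against 7.81% to 15.1% of all genes. In the liver pairs 0 were called, with 0 to 3 at an unadjusted p under 0.05, against 8.03% to 16.2% of all genes.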
